A study of Mus musculus with 12 samples.

Results

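The genes described here are 37 genes of brain endothelial cells and of the blood-brain barrier, and the question put to them was whether their mRNA levels differed between irradiated and sham-irradiated mice in either of 2 regions, cortex and hippocampus. They were chosen by symbol from the 23183 genes listed in each library, and all 37 were listed. Male C57BL/6 mice were bought at 7 weeks of age, kept for 1 week, and then given sham irradiation (Con) or a single X-ray dose of 10 Gy to the head (IR). RNA was taken 3 months later, and each of the 4 groups (cortex Con, cortex IR, hippocampus Con and hippocampus IR) had 3 libraries. The values are FPKM, sequenced fragments divided by transcript length and by the mapped fragments of the library, so levels of different genes can be set side by side per length. Each library was a whole piece of tissue, so fewer endothelial cells and less RNA per endothelial cell cannot be told apart. The labels do not say whether libraries of a group came from separate mice, so the p values measure the spread between these libraries.

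Endothelial cells line the vessels of the brain, and tight junctions between them close the gaps through which solutes pass in other organs. Glucose, amino acids and lipids therefore cross by transporters in the endothelial membrane, while efflux pumps return many lipophilic compounds to the blood. Signals from pericytes, astrocytes and neural cells, Wnt ligands and vascular endothelial growth factor among them, form and keep this barrier. Several of the 37 genes are not exclusive to endothelium: *Bsg*, *Slc7a5*, *Slc16a1*, *Tjp1*, *Ocln*, *Vcam1*, *Icam1* and *Pltp* are known to be used by other brain cells too.

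The 37 genes lie on 15 chromosomes. *Cldn5* spans chromosome 16 from 18776847 to 18778262 on the plus strand, *Eng* spans chromosome 2 from 32646595 to 32682669 on the plus strand, and *Tie1* spans chromosome 4 from 118471191 to 118490061 on the minus strand (GENCODE M21, GRCm38, the assembly also called mm10). Exons of 10 of the 37 genes overlap exons of another gene, and whether the authors counted by strand is not stated. *Eng* shares exonic bases with *Fpgs*, which lies on the opposite strand and was listed at 2.25 to 3.99 FPKM.

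Promoter windows of 300 bases, 250 before and 50 after the transcription start, were held for 23 of the 37 genes by a RefSeq table on GRCm38.p6, 31 windows in all. *Cldn5* and *Eng* are printed because their Con and IR libraries did not overlap in either tissue and had a p under 0.05 in both, and *Tie1*, another endothelial receptor, because it had neither. This choice was made after the values were seen. Capitals mark AGGAAG or its complement CTTCCT, a core that ETS factors such as Erg and Fli1 are known to bind.
Cldn5, chr16:18776597-18776896, plus strand: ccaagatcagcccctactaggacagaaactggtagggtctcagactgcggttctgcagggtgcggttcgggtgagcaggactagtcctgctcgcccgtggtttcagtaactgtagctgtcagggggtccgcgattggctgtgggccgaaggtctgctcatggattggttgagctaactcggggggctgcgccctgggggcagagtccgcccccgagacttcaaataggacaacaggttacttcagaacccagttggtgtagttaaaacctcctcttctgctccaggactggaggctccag
Eng, chr2:32646345-32646644, plus strand: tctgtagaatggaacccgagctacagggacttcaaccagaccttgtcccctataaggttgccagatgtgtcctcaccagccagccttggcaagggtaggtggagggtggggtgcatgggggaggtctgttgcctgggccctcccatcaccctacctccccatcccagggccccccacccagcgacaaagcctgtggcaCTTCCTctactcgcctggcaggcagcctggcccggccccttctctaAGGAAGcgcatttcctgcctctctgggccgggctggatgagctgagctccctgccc
Tie1, chr4:118489800-118490099, minus strand: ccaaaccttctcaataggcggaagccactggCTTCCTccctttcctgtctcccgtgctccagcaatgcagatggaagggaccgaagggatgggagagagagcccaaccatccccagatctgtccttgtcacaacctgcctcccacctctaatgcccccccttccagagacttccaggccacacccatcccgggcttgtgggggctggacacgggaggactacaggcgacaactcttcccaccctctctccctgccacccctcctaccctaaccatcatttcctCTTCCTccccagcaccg
Both strands of each window were searched for 3 motifs of 6 letters. AGGAAG was found in 16 of the 31 windows (51.6%) and in 35.4% of the 32851 windows of all genes. CCACCC, a core of Krüppel-like factors, was found in 17 of the 31 windows (54.8%) against 31.5% of all windows, and AACAAT, a core of Sox factors, in 4 (12.9%) against 10.7%. The GC content had a median of 59% in the 31 windows and of 52.7% in all windows. The *Cldn5* window held none of the 3 motifs. The *Eng* window held AGGAAG at positions -52 and -6 relative to the start, and CCACCC at -147 and -77. The *Tie1* window held the same motifs at positions -219 and 33, and at -13 and 3. None of these matches overlapped another.

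All 37 genes passed the filter on low values in both tissues, which asks that 3 or more of the 6 libraries reach 0.5 FPKM. In the cortex of Con mice *Bsg*, a chaperone of lactate transporters, was highest with 279 ± 22.0 FPKM (SD, n = 3), followed by *Cd34* with 41.5 ± 4.11, *Pltp* with 37.2 ± 1.42, *Slc2a1* with 30.8 ± 1.01 and *Cldn5* with 25.7 ± 4.20 FPKM. The libraries of *Cd34* and *Pltp* overlapped, while those of *Pltp*, *Slc2a1* and *Cldn5* lay apart in that order. *Icam1* was lowest with 0.885 ± 0.117 FPKM, and *Fli1*, with 1.10 ± 0.213 FPKM, came next to it.

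No gene of the 37 passed an adjusted p of 0.05 for IR against Con in the cortex (lowest adjusted p = 0.0890 from limma, for *Eng*) or in the hippocampus (lowest adjusted p = 0.218, for *Cldn5*). Over all tested genes 0.725% passed in the cortex and 0.0285% in the hippocampus. At an unadjusted p under 0.05, 11 of the 37 (29.7%) passed in the cortex, 10 of them higher in IR and 1 lower, where 14.1% of all tested genes passed, 8.16% higher and 5.94% lower. In the hippocampus 5 of the 37 (13.5%) passed at that level, all 5 of them higher in IR, close to the 13.9% of all tested genes, of which 7.06% were higher and 6.89% lower. Every IR library lay above every Con library for 9 of the 37 in the cortex (11.2% of all tested genes) and for 7 in the hippocampus (10.5%). Every IR library lay below every Con library for 1 of the 37 in the cortex (9.09% of all tested genes) and for 0 in the hippocampus (9.36%). The median log2 fold change of the 37 was 0.07 in the cortex, beside 0.0016 over all tested genes, and 0.06 in the hippocampus, beside -0.01, and the hippocampus median was 0.015 without Con 2. The smallest p of an exact permutation test of 3 against 3 libraries is 0.1. The count at an unadjusted p rests in part on single libraries: it was 5 in the cortex without IR 1, and in the hippocampus 3 without IR 3 and 8 without Con 3.

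**Figure D1:**
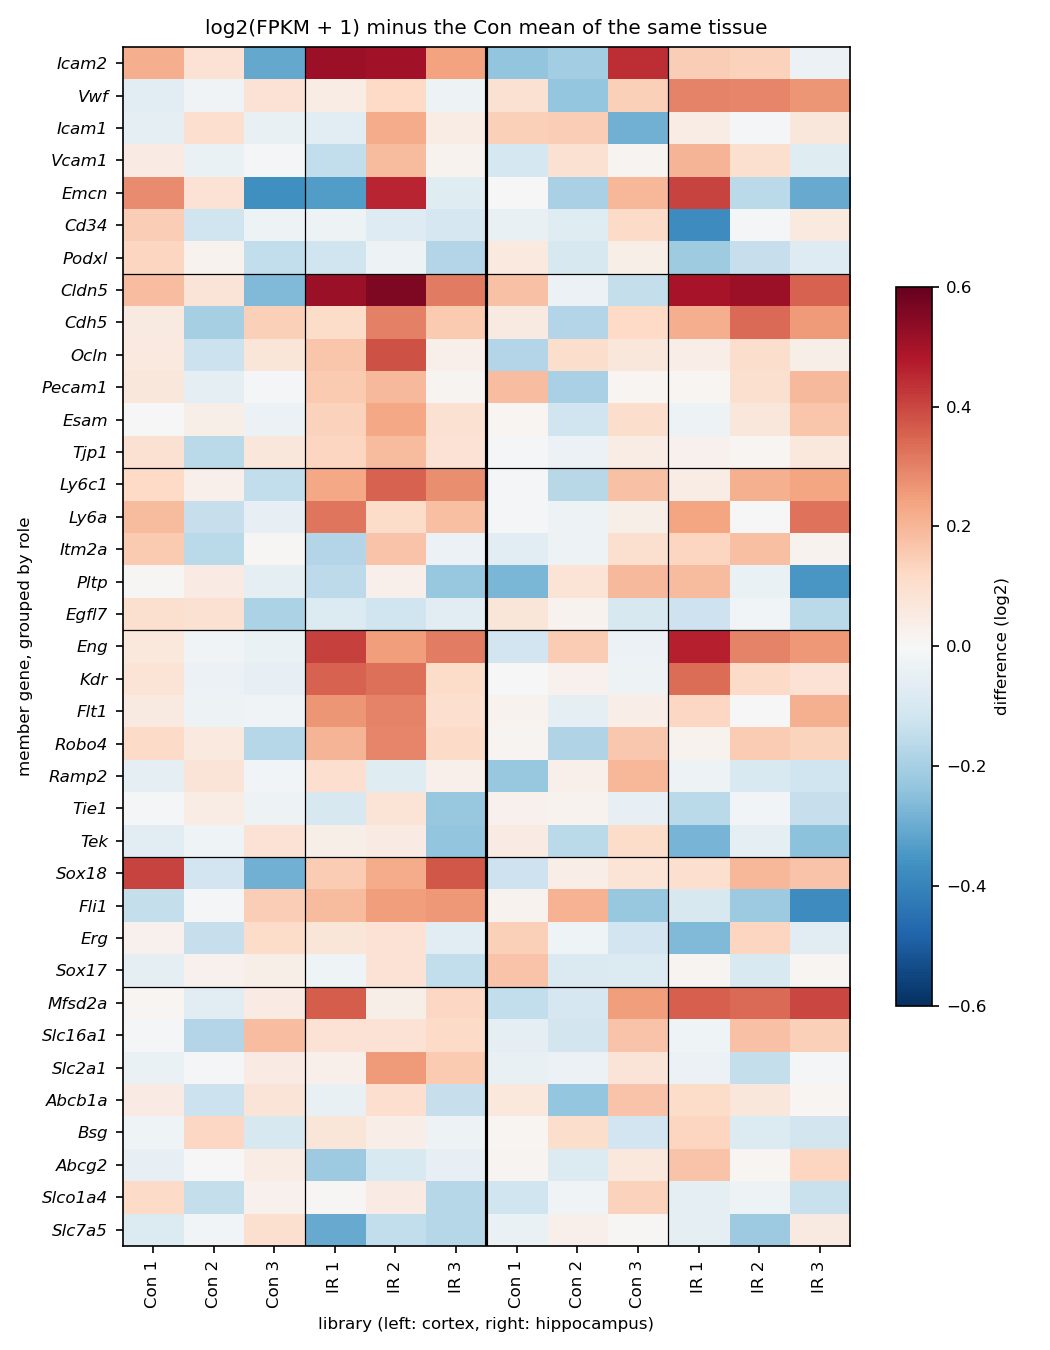
Difference of log2(FPKM + 1) from the Con mean of the same tissue (colour, red higher and blue lower) for the 37 genes (rows, grouped by role) in the 12 libraries (columns, cortex left and hippocampus right). The rows of Cldn5 and Eng are red in all 6 IR libraries, and cortex IR 2 has the highest value of its tissue in 18 of the 37 rows.

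Libraries differed in ways that bear on these genes. Cortex IR 2 had the highest value of the 6 cortex libraries for 18 of the 37 genes, with a median difference from the Con mean of 0.17 on the log2 scale over the 37 genes and of 0.0022 over all tested genes. Without it 8 of the 37 passed an unadjusted p of 0.05 in that tissue, and their median log2 fold change was 0.07. *Ttr*, a gene of the choroid plexus, was listed at 426 FPKM in cortex IR 2 and at 2.75 to 27.4 FPKM in the other cortex libraries, and at 1005 FPKM in hippocampus Con 2 and 1582 FPKM in hippocampus IR 1 against 15.9 to 55.6 FPKM in the other hippocampus libraries. The choroid plexus has vessels without a tight barrier, and the part of these cells in the values was not tested. The summed FPKM of 15 pericyte and smooth muscle genes was 86.6 to 98.0 in cortex Con, 81.1 to 99.1 in cortex IR, 74.9 to 88.0 in hippocampus Con and 79.9 to 87.7 in hippocampus IR. Of the 14 of these genes tested, 2 were lower in the hippocampus at an unadjusted p under 0.05 (*Notch3* and *Tagln*) and 0 passed in the cortex. None of the pericyte, smooth muscle or choroid plexus genes was at 0 in a whole group.

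The junction genes comprise *Cldn5*, the main claudin of the brain's tight junctions, *Ocln*, another membrane protein of the strands, the scaffold *Tjp1*, the cadherin of the adherens junction *Cdh5*, and the adhesion molecules *Pecam1* and *Esam*. All 6 had a positive log2 fold change in both tissues, with medians of 0.17 (cortex) and 0.08 (hippocampus), and 2 of the 6 had an unadjusted p under 0.05 in each tissue. *Cldn5* was listed at 29.2, 27.0 and 21.04 FPKM in cortex Con and at 36.9, 38.0 and 31.9 FPKM in cortex IR. Hippocampus libraries held it at 24.0, 20.5 and 19.0 FPKM in Con and at 30.1, 30.5 and 27.2 FPKM in IR. All IR libraries were above all Con libraries of their tissue, and Con 3 was the lowest in both tissues. The mean averaged 25.7 ± 4.20 FPKM in cortex Con and 35.6 ± 3.25 FPKM in cortex IR (SD, n = 3), 1.39 times the Con mean, with a log2 fold change of 0.46 ± 0.11 (SE, unadjusted p = 0.00257, adjusted p = 0.121 from limma). The hippocampus mean went from 21.2 ± 2.55 to 29.3 ± 1.79 FPKM, 1.38 times the Con mean, with a log2 fold change of 0.45 ± 0.092 (SE, unadjusted p = 0.00117, adjusted p = 0.218). Without hippocampus Con 3 the adjusted p of *Cldn5* in the hippocampus was 0.0453, with a log2 fold change of 0.38.

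*Cdh5* was listed at 3.16, 2.54 and 3.35 FPKM in hippocampus Con and at 3.65, 4.07 and 3.78 FPKM in hippocampus IR, without overlap (log2 fold change 0.27 ± 0.1, unadjusted p = 0.0264, adjusted p = 0.325 from limma). Its unadjusted p rose to at most 0.0882 when Con 2, IR 2 or IR 3 was left out. In the cortex the *Cdh5* libraries overlapped, with 3.61, 2.87 and 3.91 FPKM in Con and 3.79, 4.47 and 3.95 FPKM in IR. *Esam* was 7.44 ± 0.202 FPKM in cortex Con and 8.40 ± 0.475 FPKM in cortex IR, without overlap (log2 fold change 0.15 ± 0.067, unadjusted p = 0.0445, adjusted p = 0.338). Leaving out Con 1, Con 3, IR 1 or IR 2 took the unadjusted p of *Esam* above 0.05, to at most 0.170. *Ocln* averaged 1.94 ± 0.224 FPKM in Con and 2.37 ± 0.420 FPKM in IR for the cortex, and 4.46 ± 0.557 and 4.67 ± 0.1503 FPKM for the hippocampus. *Tjp1* averaged 16.2 ± 1.61 FPKM in Con and 17.9 ± 0.663 FPKM in IR for the cortex, and 19.3 ± 0.586 and 19.8 ± 0.376 FPKM for the hippocampus. *Pecam1* averaged 5.74 ± 0.286 FPKM in Con and 6.35 ± 0.480 FPKM in IR for the cortex, and 5.06 ± 0.789 and 5.47 ± 0.409 FPKM for the hippocampus. The libraries of these 3 genes overlapped in both tissues.

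The 7 receptor genes comprise *Kdr* and *Flt1*, receptors of vascular endothelial growth factor, *Tek* and *Tie1*, of the angiopoietin pathway, *Eng*, a co-receptor for the TGF-beta family, *Ramp2*, a partner of the adrenomedullin receptor, and *Robo4*. *Eng* was listed at 6.68, 6.24 and 6.16 FPKM in cortex Con and at 8.78, 7.77 and 8.10 FPKM in cortex IR, and the lowest IR library was above the highest Con library. Its log2 fold change there was 0.32 ± 0.071 (unadjusted p = 0.00113, adjusted p = 0.0890 from limma). In the hippocampus *Eng* was listed at 4.95, 6.16 and 5.28 FPKM in Con and at 7.91, 6.92 and 6.73 FPKM in IR, again without overlap, with a log2 fold change of 0.34 ± 0.096 (unadjusted p = 0.00747, adjusted p = 0.259). The IR mean was 1.29 times the Con mean in the cortex and 1.31 times in the hippocampus. *Fpgs*, the gene that overlaps *Eng*, differed by -0.11 (cortex) and 0.06 (hippocampus) on the log2 scale, with unadjusted p values of 0.409 and 0.593.

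*Kdr* was listed at 2.81, 2.52 and 2.48 FPKM in cortex Con and at 3.61, 3.52 and 2.88 FPKM in cortex IR, without overlap (log2 fold change 0.26 ± 0.096, unadjusted p = 0.0205, adjusted p = 0.264 from limma). Leaving out Con 3, IR 1 or IR 2 took its unadjusted p to at most 0.0768. In the hippocampus *Kdr* was listed at 3.63, 3.70 and 3.52 FPKM in Con and at 4.82, 4.002 and 3.90 FPKM in IR, again apart, with an unadjusted p of 0.0852. *Cldn5*, *Eng* and *Kdr* were thus the 3 of the 37 genes whose IR libraries all lay above all Con libraries in both tissues. How many of all tested genes did so in both was not counted, so this number has no background share. For single tissues that share was 11.2% (cortex) and 10.5% (hippocampus). *Flt1* averaged 8.92 ± 0.328 FPKM in cortex Con and 10.6 ± 0.838 FPKM in cortex IR, without overlap (log2 fold change 0.22 ± 0.071, unadjusted p = 0.0118, adjusted p = 0.218), and its unadjusted p was 0.0551 without IR 2. In the hippocampus *Flt1* went from 9.05 ± 0.370 to 9.88 ± 0.786 FPKM, with overlap. *Robo4* averaged 1.62 ± 0.266 FPKM in cortex Con and 2.01 ± 0.185 FPKM in cortex IR, where the libraries were apart with an unadjusted p of 0.0794, and from 1.35 ± 0.275 to 1.52 ± 0.124 FPKM in the hippocampus. *Tek* and *Tie1* had negative log2 fold changes in both tissues, of -0.05 and -0.08 for the cortex and of -0.19 and -0.10 for the hippocampus, with all 4 unadjusted p values above 0.1. *Tie1* was 3.40 ± 0.122 and 3.18 ± 0.451 FPKM in cortex Con and IR, and *Tek* was 3.61 ± 0.252 and 3.47 ± 0.485 FPKM. *Ramp2* was 12.1 ± 0.632 and 12.3 ± 0.805 FPKM in cortex Con and IR, and 22.0 ± 3.36 and 20.6 ± 0.681 FPKM in hippocampus Con and IR.

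**Figure D2:**
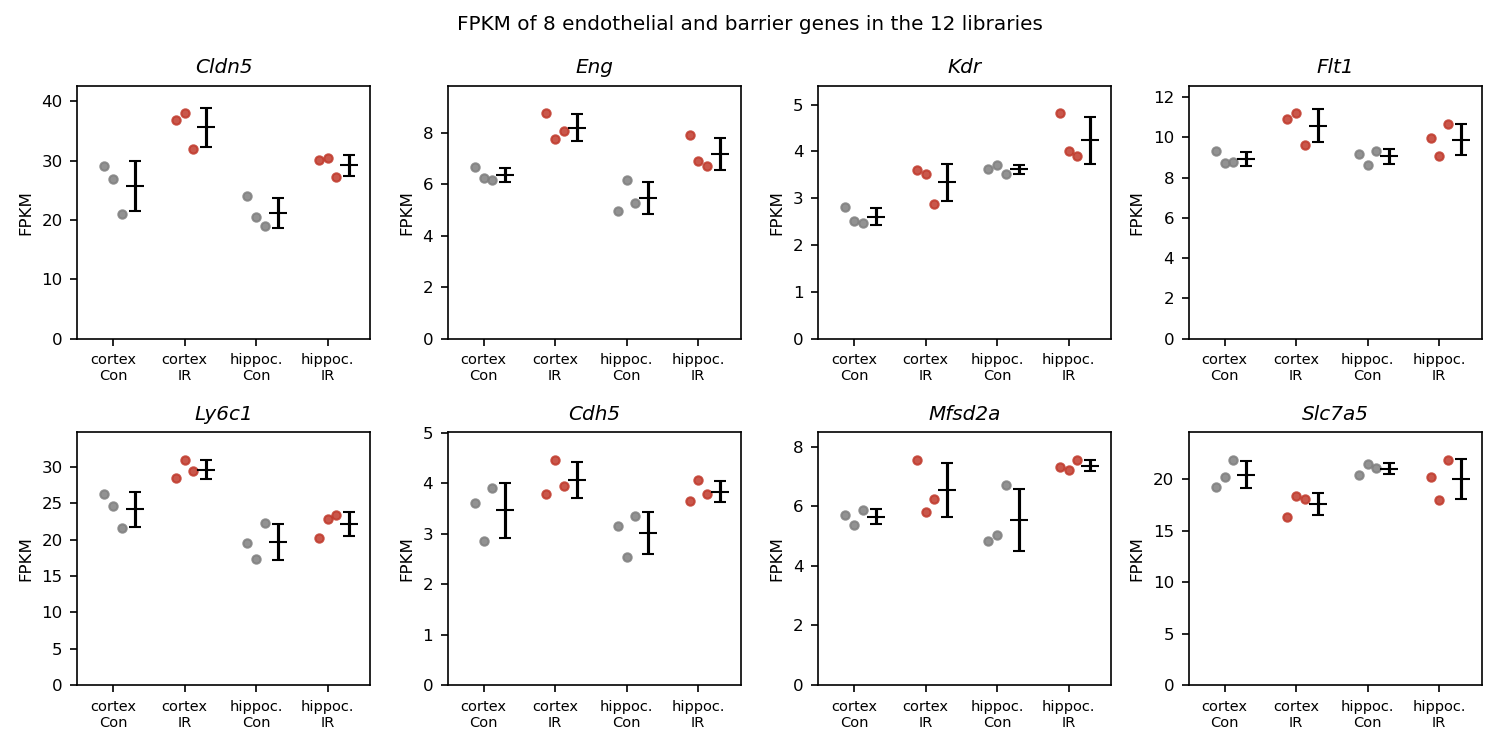
FPKM of 8 of the genes (1 panel each, vertical axis from 0) in cortex and hippocampus, Con in grey and IR in red, with 1 point per library and the mean with its SD (n = 3) as a bar. Red points lie above grey points of the same tissue in both tissues for Cldn5, Eng and Kdr, and below them in the cortex for Slc7a5.

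The 8 transport genes had median log2 fold changes of 0.0006 for the cortex and 0.02 for the hippocampus, with 4 positive and 4 negative in each. *Mfsd2a*, which carries lysophosphatidylcholine-bound lipids and restrains transcytosis, was listed at 4.85, 5.04 and 6.72 FPKM in hippocampus Con and at 7.31, 7.20 and 7.57 FPKM in hippocampus IR. Con 3 stood above the other Con libraries but below all IR libraries, and the log2 fold change was 0.37 ± 0.11 (unadjusted p = 0.0106, adjusted p = 0.278 from limma). Without Con 3 it was 0.49 with an adjusted p of 0.0226. In the cortex *Mfsd2a* was listed at 5.70, 5.37 and 5.88 FPKM in Con and at 7.56, 5.82 and 6.25 FPKM in IR, with overlap and an unadjusted p of 0.0882.

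*Slc7a5*, a transporter of large neutral amino acids, was the gene of the 37 with a lower level in IR and an unadjusted p under 0.05 in the fit of a single tissue. It was listed at 19.3, 20.2 and 21.9 FPKM in cortex Con and at 16.4, 18.4 and 18.1 FPKM in cortex IR, without overlap (log2 fold change -0.21 ± 0.068, unadjusted p = 0.0128, adjusted p = 0.222 from limma). Its unadjusted p was at most 0.0587 without Con 3 or IR 1. Its hippocampus mean went from 21.04 ± 0.539 to 20.0 ± 1.97 FPKM, with overlap. *Slc2a1*, the glucose transporter of the barrier, averaged 30.8 ± 1.01 FPKM in cortex Con and 34.3 ± 2.74 FPKM in cortex IR (log2 fold change 0.15 ± 0.065, unadjusted p = 0.0477, adjusted p = 0.346), with overlap, and its unadjusted p was above 0.05 without Con 1, Con 2, IR 2 or IR 3. It was also above 0.05 with no filter on low values (0.0901), with quantile normalization (0.0837) and without trend and robust prior (0.0777). In the hippocampus *Slc2a1* went from 29.0 ± 1.45 to 27.8 ± 1.39 FPKM.

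The efflux pumps and the remaining carriers overlapped between Con and IR in both tissues. *Abcb1a*, the main drug efflux pump, was 7.09 ± 0.610 and 6.94 ± 0.671 FPKM in cortex Con and IR, and 5.73 ± 0.941 and 5.99 ± 0.247 FPKM in hippocampus Con and IR. *Abcg2*, another efflux pump, was 5.43 ± 0.208 and 4.93 ± 0.355 FPKM in the cortex and 4.55 ± 0.283 and 4.97 ± 0.335 FPKM in the hippocampus, so its difference pointed down in one tissue and up in the other. *Slco1a4*, an organic anion transporter, was 12.5 ± 1.19 and 12.1 ± 1.04 FPKM in the cortex and 10.9 ± 1.08 and 10.2 ± 0.414 FPKM in the hippocampus. *Slc16a1*, which carries lactate and ketone bodies, was 8.54 ± 1.19 and 9.14 ± 0.112 FPKM in the cortex and 9.96 ± 1.16 and 10.7 ± 0.865 FPKM in the hippocampus. *Bsg* was 279 ± 22.0 and 285 ± 10.3 FPKM in the cortex and 263 ± 20.3 and 260 ± 24.0 FPKM in the hippocampus. Related genes of *Abcb1a* and *Slco1a4* exist, and how the authors shared reads between related genes is not stated. *Abcb1b* was listed at 0.595 to 1.25 FPKM and *Slco1a5* at 0 to 0.300 FPKM.

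Of the 4 transcription factors, *Fli1*, an ETS factor, was listed at 0.895, 1.08 and 1.32 FPKM in cortex Con and at 1.38, 1.49 and 1.5 FPKM in cortex IR, without overlap (log2 fold change 0.23 ± 0.1, unadjusted p = 0.0455, adjusted p = 0.340 from limma). Leaving out any cortex library except Con 3 took its unadjusted p above 0.05, to at most 0.171. In the hippocampus *Fli1* was listed at 1.53, 1.88 and 1.13 FPKM in Con and at 1.33, 1.14 and 0.919 FPKM in IR, with overlap and a log2 fold change of -0.23. *Sox18* was listed at 3.70, 4.27 and 4.42 FPKM in hippocampus Con and at 4.49, 4.88 and 4.76 FPKM in hippocampus IR, apart but with an unadjusted p of 0.101, and in the cortex its Con libraries ran from 3.48 to 6.25 FPKM and held all IR libraries between them. *Sox17* was 1.83 ± 0.102 and 1.77 ± 0.224 FPKM in cortex Con and IR and 1.75 ± 0.289 and 1.70 ± 0.111 FPKM in hippocampus Con and IR. *Erg*, the other ETS factor, was 1.96 ± 0.257 and 2.02 ± 0.177 FPKM in the cortex and 1.71 ± 0.247 and 1.60 ± 0.354 FPKM in the hippocampus.

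*Icam1* and *Vcam1*, the adhesion molecules that activated endothelium shows to leukocytes, overlapped between Con and IR in both tissues. *Icam1* was 0.885 ± 0.117 and 0.980 ± 0.203 FPKM in cortex Con and IR and 0.767 ± 0.289 and 0.794 ± 0.0471 FPKM in hippocampus Con and IR. *Vcam1* was 6.06 ± 0.223 and 6.20 ± 0.850 FPKM in the cortex and 7.67 ± 0.592 and 8.15 ± 0.868 FPKM in the hippocampus. *Icam2*, which resting endothelium carries, was listed at 1.97, 1.71 and 1.07 FPKM in cortex Con and at 2.65, 2.62 and 2.02 FPKM in cortex IR, without overlap (log2 fold change 0.42 ± 0.14, unadjusted p = 0.0146, adjusted p = 0.233 from limma). Its IR mean was 1.53 times the Con mean, and its unadjusted p was 0.0540 without Con 3, 0.0509 without IR 1 and 0.0694 with no filter on low values. In the hippocampus *Icam2* was listed at 1.02, 1.05 and 2.23 FPKM in Con and at 1.63, 1.61 and 1.32 FPKM in IR, and Con 3 was above every IR library.

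*Vwf*, which endothelium stores for haemostasis, was listed at 2.46, 1.76 and 2.58 FPKM in hippocampus Con and at 2.99, 2.98 and 2.90 FPKM in hippocampus IR, without overlap (log2 fold change 0.28 ± 0.11, unadjusted p = 0.0365, adjusted p = 0.341 from limma). Without Con 2 or any single IR library its unadjusted p was above 0.05, at most 0.102. In the cortex *Vwf* was 2.15 ± 0.172 and 2.25 ± 0.166 FPKM in Con and IR. The sialomucins overlapped between Con and IR in both tissues. *Cd34* was 41.5 ± 4.11 and 39.4 ± 0.964 FPKM in cortex Con and IR and 13.5 ± 1.03 and 12.6 ± 2.10 FPKM in hippocampus Con and IR. *Podxl* was 8.73 ± 0.930 and 8.001 ± 0.463 FPKM in the cortex and 7.74 ± 0.494 and 6.91 ± 0.383 FPKM in the hippocampus. *Emcn* was 3.38 ± 0.964 and 3.47 ± 1.29 FPKM in the cortex and 3.21 ± 0.576 and 3.22 ± 1.15 FPKM in the hippocampus, with the largest standard error of the 37 log2 fold changes in each tissue.

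Among the other endothelial genes, *Ly6c1*, a surface protein of mouse brain endothelium, was listed at 26.2, 24.6 and 21.6 FPKM in cortex Con and at 28.4, 31.0 and 29.4 FPKM in cortex IR, without overlap (log2 fold change 0.29 ± 0.074, unadjusted p = 0.00307, adjusted p = 0.131 from limma). Its hippocampus libraries were at 19.5, 17.4 and 22.3 FPKM in Con and at 20.3, 22.9 and 23.3 FPKM in IR, with overlap. *Ly6a*, its relative, averaged 16.7 ± 2.14 FPKM in cortex Con and 19.4 ± 1.55 FPKM in cortex IR (log2 fold change 0.20 ± 0.09, unadjusted p = 0.0479, adjusted p = 0.346) and 11.1 ± 0.287 and 12.9 ± 1.59 FPKM in hippocampus Con and IR, with overlap in both. The unadjusted p of *Ly6a* in the cortex was above 0.05 without Con 2, Con 3, IR 1 or IR 3, with no filter on low values (0.139), with quantile normalization (0.0669) and without trend and robust prior (0.0725). *Ly6c2*, the nearest copy of *Ly6c1*, was listed at 0 in 11 of the 12 libraries. *Egfl7*, a secreted factor of vessels, was 19.4 ± 2.22 and 18.1 ± 0.393 FPKM in cortex Con and IR and 16.3 ± 1.02 and 15.1 ± 0.855 FPKM in hippocampus Con and IR. *Itm2a* was 24.8 ± 2.85 and 24.6 ± 3.12 FPKM in the cortex and 21.05 ± 1.32 and 22.8 ± 1.35 FPKM in the hippocampus. *Pltp*, a phospholipid transfer protein, was 37.2 ± 1.42 and 34.3 ± 3.32 FPKM in the cortex and 40.0 ± 6.62 and 38.2 ± 7.25 FPKM in the hippocampus.

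**Figure D3:**
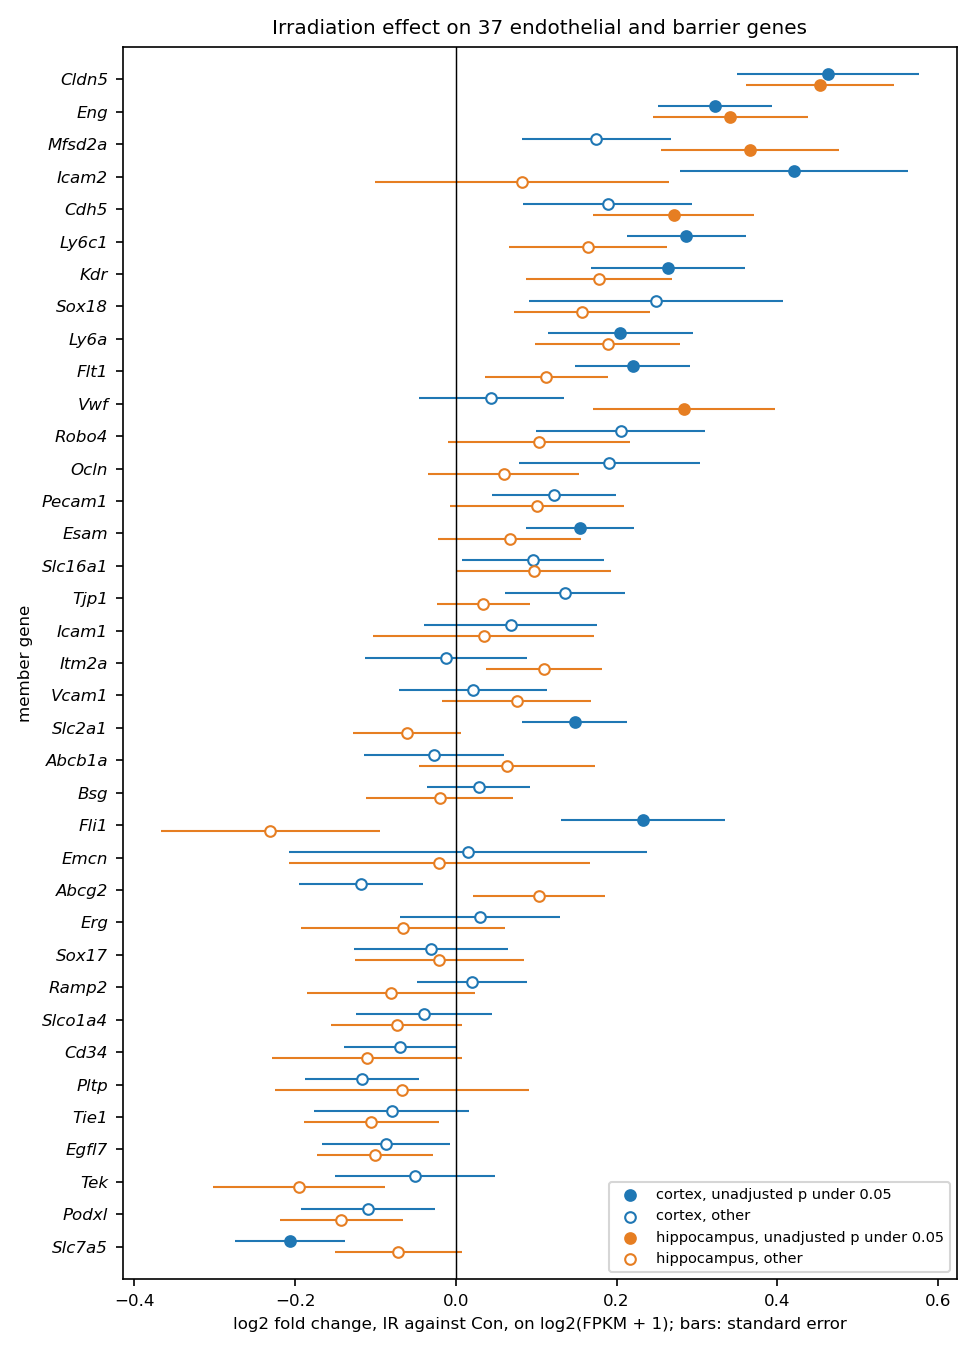
Log2 fold change of IR against Con on log2(FPKM + 1) (horizontal axis, bars the standard error) for the 37 genes (vertical axis, ordered by the mean over both tissues), cortex in blue and hippocampus in orange, filled where the unadjusted p is under 0.05. Cldn5 (0.46 and 0.45) and Eng (0.32 and 0.34) are filled in both tissues, and Fli1 has points on opposite sides of 0.

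Across both tissues 19 of the 37 genes were higher in IR in each, 9 were lower in each and 9 pointed in opposite directions. *Cldn5* and *Eng*, 2 of the 37 (5.41%), had an unadjusted p under 0.05 in the same direction in both, as did 2.57% of the genes tested in both tissues. The average of both irradiation effects was then tested over all 12 libraries, a contrast added after these values were seen. In it *Cldn5* was higher in IR with a log2 fold change of 0.46 ± 0.081 (SE, adjusted p = 0.0213 from limma) and *Eng* with 0.33 ± 0.059 (adjusted p = 0.0223), and no other gene of the 37 had an adjusted p under 0.05, which 1.93% of all tested genes had. At an unadjusted p under 0.05 there were 11 of the 37 (29.7%), 9 higher in IR and 2 lower (*Podxl* and *Slc7a5*), beside 18.7% of all tested genes. Both calls were lost without cortex IR 1, without hippocampus IR 1, when the cortex and hippocampus library of the same group and number were counted as 1 mouse, and with no filter on low values, and that of *Eng* was lost without cortex Con 3. The adjusted p in these fits was at most 0.0980 for *Cldn5* and 0.0889 for *Eng*. Whether equal numbers mark the same mouse is not in the labels. Without hippocampus Con 3 the adjusted p was under 0.05 for 5 genes, with *Icam2*, *Ly6c1* and *Mfsd2a* added.

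*Cldn5* and *Eng* were also set against 5 other endothelial genes, the summed FPKM of *Pecam1*, *Cdh5*, *Tie1*, *Tek* and *Esam* in the same library, a ratio also chosen after the values were seen and given without a test. The sum was 23.7 ± 0.518 FPKM in cortex Con and 25.5 ± 2.07 FPKM in cortex IR (SD, n = 3), and 20.3 ± 1.93 and 21.1 ± 1.25 FPKM in hippocampus Con and IR, with overlap in both tissues. *Cldn5* over that sum was 1.22, 1.17 and 0.875 in cortex Con and 1.45, 1.38 and 1.36 in cortex IR. In the hippocampus it was 1.11, 1.13 and 0.888 in Con and 1.53, 1.39 and 1.25 in IR, so that the ratio was higher in every IR library of each tissue. *Eng* over that sum was 0.269 ± 0.0117 in cortex Con and 0.324 ± 0.0366 in cortex IR, without overlap. In the hippocampus it was 0.272 ± 0.0594 in Con and 0.343 ± 0.0518 in IR, where Con 2 with 0.340 lay among the IR libraries. These values depended on the genes of the sum. *Tie1* and *Tek* had negative log2 fold changes in both tissues, and without them the sum was 16.0 to 17.1 FPKM in cortex Con and 17.7 to 20.1 FPKM in cortex IR, without overlap. With *Kdr*, *Flt1*, *Ly6c1* and *Icam2* added, the sum was 57.97 to 64.2 FPKM in cortex Con and 67.4 to 75.9 FPKM in cortex IR, also apart, while both sums overlapped in the hippocampus. The mean *Cldn5* ratio in IR was 1.22 times that in Con with the sum of 3 genes and 1.18 times with that of 9 in the cortex, and 1.24 and 1.27 times in the hippocampus, where the libraries overlapped with the sum of 3. The *Eng* ratio overlapped between Con and IR in both tissues with either sum.

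**Figure D4:**
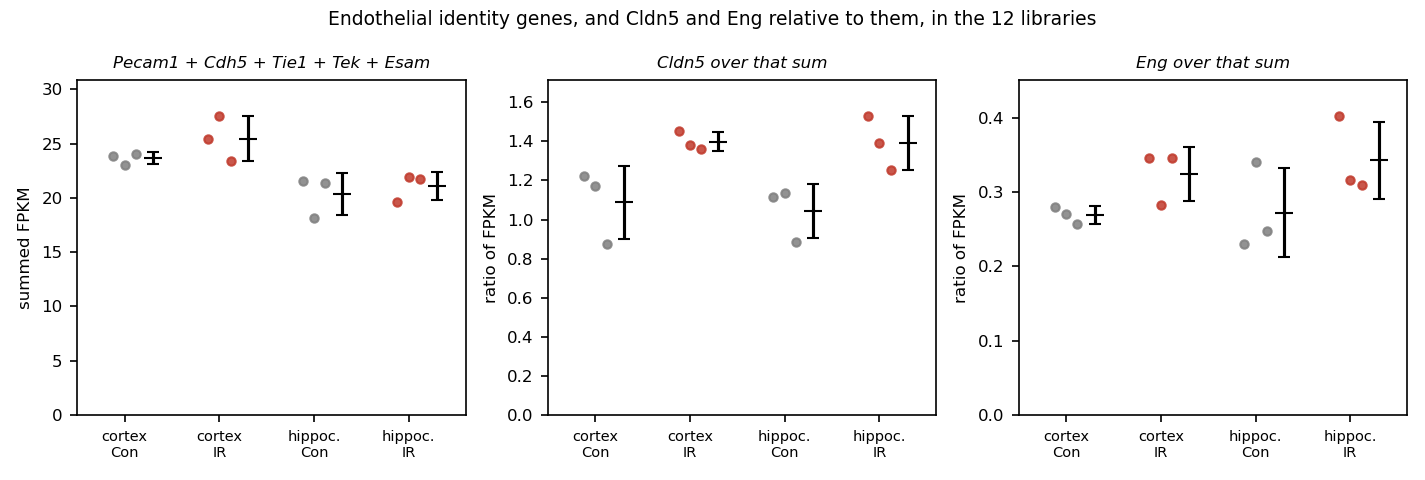
Summed FPKM of Pecam1, Cdh5, Tie1, Tek and Esam (left), and the ratio of Cldn5 (middle) and Eng (right) to that sum, in each library (points, Con grey and IR red) with the mean and SD (n = 3). With this choice of genes the sums overlap between Con and IR and the Cldn5 ratio is 0.875 to 1.22 in Con and 1.25 to 1.53 in IR.

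Whether irradiation acted differently in the tissues was tested as an interaction over all 12 libraries. No gene of the 37 had an adjusted p under 0.05 (lowest adjusted p = 0.397 from limma, for *Fli1*), as 0.0823% of all tested genes had. At an unadjusted p under 0.05 there were 2 of the 37, *Fli1* and *Slc2a1* (5.41%), beside 10.3% of all tested genes. That of *Slc2a1* was above 0.05 with quantile normalization (0.138), without trend and robust prior (0.0609), with the replicate block (0.0688) and without 7 of the 12 libraries in turn. For *Cldn5* the interaction was -0.01 ± 0.16 (SE) and for *Eng* 0.02 ± 0.12 on the log2 scale, with adjusted p values of 0.991 and 0.973.

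Con levels of the 37 genes differed between tissues for 12 of them (32.4%) at an adjusted p under 0.05, beside 43.8% of all tested genes, 7 lower and 5 higher in the hippocampus. A processing run that differed between the tissues could not be told apart from the tissue. *Cd34* differed most: 46.0, 38.0 and 40.6 FPKM in the cortex and 13.1, 12.8 and 14.7 FPKM in the hippocampus, a ratio of 0.326 (log2 difference -1.55 ± 0.10, adjusted p = 7.5e-08 from limma). *Ly6a*, with 0.665 times the cortex level, *Abcb1a* with 0.808, *Esam* with 0.809, *Ly6c1* with 0.816, *Abcg2* with 0.839 and *Egfl7* with 0.841 were the others lower in the hippocampus. *Ocln*, listed at 2.06, 1.68 and 2.09 FPKM in the cortex and at 3.83, 4.86 and 4.71 FPKM in the hippocampus, was 2.30 times as high there (log2 difference 0.89 ± 0.1, adjusted p = 1.6e-05). *Ramp2* was 1.82 times as high, *Kdr* 1.39 times, *Vcam1* 1.26 times and *Tjp1* 1.19 times. An exon of *Ramp2* overlaps *Vps25* on the same strand, and *Vps25* differed by 0.13 on the log2 scale between tissues (adjusted p = 0.111). An exon of *Cd34* overlaps *Gm16897* on the opposite strand, and that gene too was lower in the hippocampus, at 0.393 to 0.551 FPKM against 1.09 to 1.33 FPKM. Without hippocampus Con 2, the library with 1005 FPKM of *Ttr*, 7 of the 37 genes passed.

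**Figure D5:**
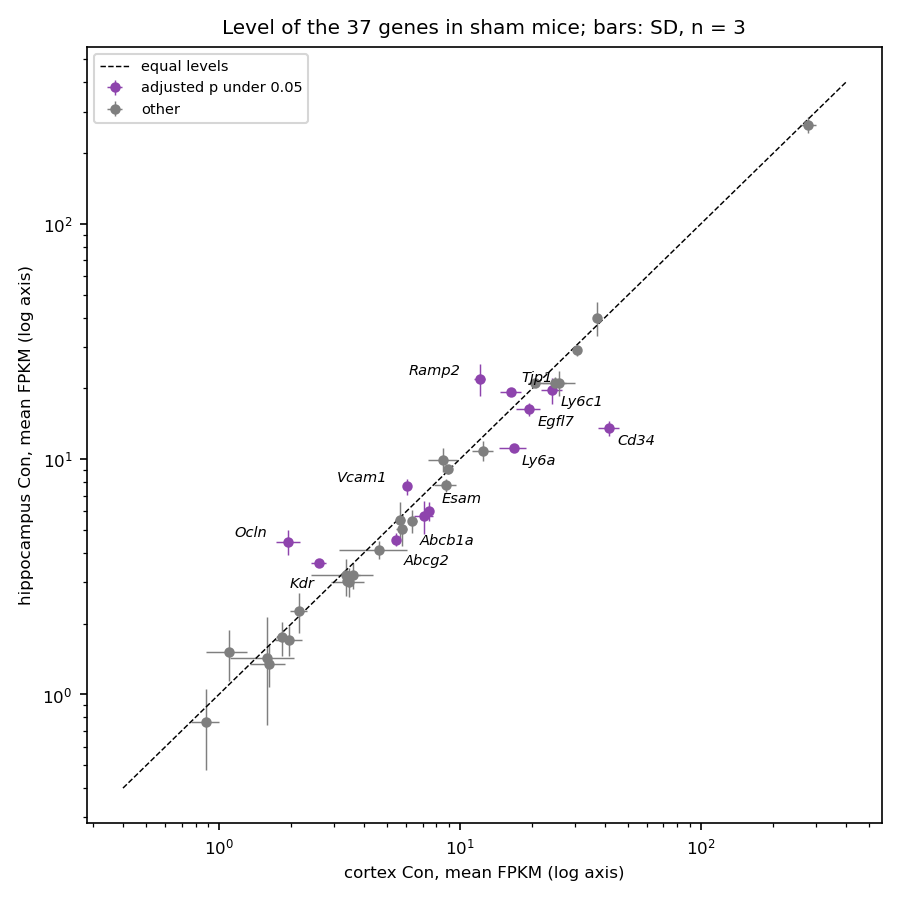
Mean FPKM of the 37 genes in cortex Con (horizontal) and hippocampus Con (vertical), both axes logarithmic, bars the SD (n = 3), with the 12 genes at an adjusted p under 0.05 in purple and named. Cd34 lies far below the dashed line of equal levels (ratio 0.326) and Ocln far above it (ratio 2.30).

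Lists of further barrier and vascular genes were described in the same fits. Each library was whole tissue, so the name of a list does not show which cells its values came from. Of all tested genes 8.16% were higher and 5.94% lower in cortex IR at an unadjusted p under 0.05, and 7.06% were higher and 6.89% lower in hippocampus IR, and the counts of each list stand beside these shares. Of 9 more junction genes 4 were higher in cortex IR at an unadjusted p under 0.05 (among them *Lsr* with a log2 fold change of 0.29 and *Ctnnd1* with 0.26) and 0 were lower, while 0 of 9 passed in the hippocampus. Their median log2 fold changes were 0.01 for the cortex and -0.01 for the hippocampus. Of 12 more transporters 2 were higher and 2 lower in the cortex at that level, and 2 were lower in the hippocampus. The 2 higher in cortex IR were *Lrp8*, a receptor of reelin and apolipoprotein E (log2 fold change 0.23, adjusted p = 0.159 from limma, without overlap), and *Slc19a3*, a thiamine transporter (0.27, adjusted p = 0.308, with overlap). *Tfrc*, the transferrin receptor, averaged 21.7 FPKM in cortex Con and 18.0 FPKM in cortex IR, and 25.1 and 16.7 FPKM in hippocampus Con and IR (log2 fold changes -0.25 and -0.56, adjusted p = 0.212 and 0.214 from limma). *Slc6a6*, the taurine transporter, was also lower in both, with log2 fold changes of -0.14 and -0.25. Of 6 transcytosis genes 1 was lower in each tissue, *Plvap*, of fenestrated vessels, in the cortex (log2 fold change -0.27) and *Ptrf*, of caveolae, in the hippocampus (-0.24).

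Of 10 tested genes of the vascular endothelial growth factor and angiopoietin pathways 2 were higher and 1 was lower in the cortex, and 1 was higher in the hippocampus. *Vegfa*, the ligand of *Kdr* and *Flt1*, was listed at 23.9, 23.9 and 24.3 FPKM in cortex Con and at 27.1, 27.5 and 31.1 FPKM in cortex IR (log2 fold change 0.24, adjusted p = 0.138 from limma). In the hippocampus *Vegfa* was listed at 18.5, 20.7 and 19.2 FPKM in Con and at 22.0, 20.98 and 23.0 FPKM in IR (log2 fold change 0.17, adjusted p = 0.344), so IR lay above Con in both tissues. *Angpt1*, the ligand of *Tek*, was 1.42 FPKM in cortex Con and 0.632 FPKM in cortex IR (log2 fold change -0.54, adjusted p = 0.221), with overlap.

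Of 15 Wnt pathway genes 2 were higher and 1 was lower in the cortex, and 2 were higher in the hippocampus. *Wnt7a*, a ligand that induces the barrier, was listed at 2.76, 3.11 and 3.45 FPKM in cortex Con and at 4.44, 3.96 and 4.41 FPKM in cortex IR (log2 fold change 0.36, adjusted p = 0.125 from limma). In the hippocampus it was listed at 4.88, 3.76 and 3.91 FPKM in Con and at 5.64, 6.23 and 6.45 FPKM in IR (log2 fold change 0.46, adjusted p = 0.230), again without overlap. Of 10 vascular Notch genes 1 was higher and 1 was lower in the cortex, *Notch1* and *Hey1*, and 0 passed in the hippocampus.

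In the cortex 3 genes of these lists passed an adjusted p of 0.05, all upregulated in IR, beside 0.725% of all tested genes in either direction. They were 1 of 13 more endothelial factors, 1 of 12 basement membrane genes and 1 of 6 tested genes of endothelial activation. *Klf4*, a factor that blood flow induces in endothelium, rose from 1.79, 1.64 and 1.89 FPKM in Con to 2.76, 3.40 and 3.78 FPKM in IR (log2 fold change 0.63, adjusted p = 0.0353 from limma), while in the hippocampus its libraries overlapped. *Col4a2*, a collagen of the vessel's basement membrane, rose from 13.2, 13.7 and 11.9 FPKM to 17.2, 16.5 and 16.5 FPKM (log2 fold change 0.35, adjusted p = 0.0466). *Plat*, tissue plasminogen activator, rose from 8.26, 7.96 and 8.70 FPKM to 10.9, 11.5 and 10.96 FPKM (log2 fold change 0.38, adjusted p = 0.0336), and in the hippocampus it was listed at 12.4, 10.5 and 12.3 FPKM in Con and at 15.1, 15.6 and 16.7 FPKM in IR (log2 fold change 0.40, adjusted p = 0.218). The adjusted p of *Klf4* and *Plat* was above 0.05 without any single cortex library (at most 0.123 and 0.139), and that of *Col4a2* without any but Con 2 (at most 0.218). The calls of these 3 genes were also lost with no filter on low values, without trend and robust prior, and with the replicate block (adjusted p at most 0.278, 0.0977 and 0.0901), and that of *Col4a2* with quantile normalization (0.0691) and in the single fit of all libraries (0.168). Of 12 basement membrane genes 2 were higher in the cortex at an unadjusted p under 0.05 and 0 passed in the hippocampus, and of the 13 more endothelial factors tested 2 were higher in the cortex, while 1 was higher and 2 were lower in the hippocampus. Of 12 genes of endothelial activation 6 passed the filter on low values, and 3 of these were higher in the cortex and 2 in the hippocampus at that level, with 0 lower in either. Of the selectins of inflamed endothelium, *Sele* was listed at 0 in all hippocampus libraries, Con and IR, and *Selp* at 0 in all cortex Con libraries.

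For the average effect over both tissues, the contrast added after values were seen, 6 genes of the vascular lists had an adjusted p under 0.05, beside 1.93% of all tested genes. They were 2 of 12 more transporters, 1 of 13 more endothelial factors and 1 of 10 growth factor and angiopoietin genes. The others were 1 of 15 Wnt pathway genes and 1 of 6 tested genes of endothelial activation, and the remaining vascular lists had none. *Plat* (log2 fold change 0.39, adjusted p = 0.00373 from limma), *Wnt7a* (0.41, 0.0159), *Klf4* (0.37, 0.0346) and *Vegfa* (0.20, 0.0449) were higher in IR, and *Tfrc* (-0.41, 0.0172) and *Slc6a6* (-0.20, 0.0333) were lower. Of the microglia genes *Csf1r*, *Cx3cr1* and *Siglech* were lower in that contrast, with adjusted p values of 0.0216 to 0.0346. Of these 9 calls, those other than *Plat* were lost with no filter on low values and without cortex IR 1, those other than *Wnt7a* with the replicate block, and those other than *Plat* and *Wnt7a* without hippocampus IR 1. The adjusted p in fits that lost a call was at most 0.124, and calls other than those of *Plat*, *Wnt7a* and *Tfrc* were also lost without at least 1 other library. That of *Vegfa* was also lost without trend and robust prior (0.0613).

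Genes of other cell types were counted in the same way, beside the 14.1% (cortex) and 13.9% (hippocampus) of all tested genes at an unadjusted p under 0.05. Of 10 microglia genes 4 were lower in cortex IR and 7 in hippocampus IR at an unadjusted p under 0.05, and their summed FPKM was 168 to 181 in cortex Con, 134 to 174 in cortex IR, 165 to 197 in hippocampus Con and 131 to 147 in hippocampus IR. *Csf1r* fell in the hippocampus by 0.84 on the log2 scale (adjusted p = 0.0126 from limma), a call lost without Con 1 or any single IR library (at most 0.230), with no filter on low values (0.148), with the replicate block (0.144) and in the single fit of all libraries (0.0801). Of 7 oligodendrocyte genes 3 were higher in the cortex and 2 lower in the hippocampus, and their sum was 1092 to 1352 FPKM in cortex Con and 1354 to 1640 FPKM in cortex IR, and 1119 to 1366 FPKM in hippocampus Con and 1037 to 1314 FPKM in hippocampus IR. Of 8 astrocyte genes 2 were higher in the cortex and 3 lower in the hippocampus, and of 8 neuronal genes 0 passed in either tissue. The astrocyte sum was 784 to 879 FPKM in cortex Con and 824 to 880.04 FPKM in cortex IR, and 902 to 1030 FPKM in hippocampus Con and 883 to 953 FPKM in hippocampus IR. Of 10 fibroblast genes tested in the cortex 1 was lower, and of 9 tested in the hippocampus 2 were higher, *Ogn* and *Slc6a13*, with a sum of 40.5 to 57.0 FPKM in cortex Con, 32.2 to 49.8 FPKM in cortex IR, 38.9 to 57.6 FPKM in hippocampus Con and 49.3 to 73.1 FPKM in hippocampus IR. The summed FPKM of 5 blood genes was 97.8 to 121 in cortex Con and 120 to 146 in cortex IR, and 41.5 to 75.7 and 53.8 to 96.0 in hippocampus Con and IR. The median log2 fold changes of the microglia genes were -0.19 (cortex) and -0.34 (hippocampus), and those of the oligodendrocyte genes 0.19 and -0.23. The part of these cells in the differences of the 37 genes was not tested.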

How the data were processed

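Expression was measured by RNA-seq in 12 libraries, 3 each of cortex Con, cortex IR, hippocampus Con and hippocampus IR. The deposited values are FPKM made by the authors, who trimmed reads (FASTX_Trimmer, BBMap), ran TopHat against mm10, the build the labels name, quantified with Cufflinks and then normalized geometrically in edgeR. The annotation and the strand setting are not given in the sources used here. The methods name an RNeasy kit and poly(A) selection, while the labels name Trizol and total RNA. The sum of FPKM in a library ran from 359773 to 393447. Relative to Con 1 of each tissue, the depth read from the spacing of low values was 1 to 1.13, but the depth in reads is unknown, so no counting interval is given. No pair of libraries was identical.

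Groups were taken from the labels. Genes reaching 0.5 FPKM in 3 or more of the 6 libraries of a tissue (14065 in the cortex, 14043 in the hippocampus), or in 3 of all 12 (14577), were tested on log2(FPKM + 1) with limma 3.58.1 (R 4.3.3; moderation with trend and robust prior) and Benjamini-Hochberg adjustment over all tested genes. Fold changes on this scale understate those of low genes. The steps were tested on simulated data. The alternatives were no filter, a minimum of 1 FPKM in every library, 0.1 as pseudocount, quantile normalization, no trend or robust prior, a replicate block, a single fit of all libraries, and leaving out each library. In the fit of a tissue the replicate block paired Con and IR libraries of equal number. In the interaction, the tissue difference and the mean effect it joined cortex and hippocampus libraries of the same group and number as 1 mouse.

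The 37 genes and the other lists were chosen with earlier results of these data known. All 37 are named, with test values where the unadjusted p was under 0.05 in a tissue. Genes of the other lists are named by an adjusted p under 0.05, by an unadjusted p under 0.05 in the same direction in both tissues, or among the 2 largest log2 fold changes of a list at an unadjusted p under 0.05. *Ttr*, *Sele* and *Selp* were named, and *Ramp2* was compared with *Vps25*, *Cd34* with *Gm16897* and *Eng* with *Fpgs*, and *Abcb1b*, *Slco1a5* and *Ly6c2* were added as copies, after values were seen. Of the lists, *Afdn*, *Plpp3*, *Gpr124* and *Hbb-bt* are not listed in the files. Positions came from GENCODE M21. Figures were drawn with matplotlib 3.10.9.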

Additional observations from a re-analysis of the deposited data

Results flagged for a closer look

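The irradiation effect differed between tissues at an unadjusted p under 0.05 for 2 of the 37 genes, and for neither after adjustment over all tested genes. For *Fli1* the hippocampus effect minus the cortex effect was -0.46 on the log2 scale (unadjusted p = 0.0170, adjusted p = 0.397 from limma), with all cortex IR libraries above all cortex Con libraries and overlap in the hippocampus. For *Slc2a1* the difference was -0.21 (unadjusted p = 0.0464, adjusted p = 0.474), with overlap between Con and IR in both tissues. The interaction of *Fli1* stayed at an unadjusted p under 0.05 in the 17 alternatives that tested it, with values from -0.77 to -0.36, and that of *Slc2a1* in 8 of 18.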

How the results depend on the processing

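None of the 20 single-gene results and 2 medians followed through the alternatives changed direction. The single-gene results were those past their threshold in the main fit, so a change of direction was unlikely. Other fold changes of the 37 genes were not followed. Of the 262 alternative values of single genes, 198 stayed on their side of the threshold and 64 lost an unadjusted p under 0.05 (an adjusted p for the mean effect over both tissues). *Cldn5*, *Eng* and *Ly6c1* in the cortex and *Cldn5*, *Eng* and *Mfsd2a* in the hippocampus had an unadjusted p under 0.05 in all 12 alternatives of their tissue. With no filter on low values 0 of the 37 genes passed for the mean effect over both tissues. The interaction had 1 gene at an unadjusted p under 0.05 with at least 1 FPKM in every library, 1 with quantile normalization and 1 with the replicate block. With the replicate block 1 gene passed an adjusted p in the cortex (*Cldn5*, adjusted p = 0.0431 from limma), 3 had an unadjusted p under 0.05 in the hippocampus, and 0 passed for the mean effect. In the fit of a tissue this block paired Con and IR libraries by number, and the labels name no such pairs. In the cortex *Esam* (0.0541) and *Fli1* (0.0510) and in the hippocampus *Cdh5* (0.0545) and *Vwf* (0.0524) had an unadjusted p above 0.05 with the block, as did *Esam* with quantile normalization (0.0560) and *Vwf* with no filter on low values (0.0633). Deviations of Con and IR libraries with the same number correlated at 0.11, -0.11 and -0.04 in the cortex and at -0.39, -0.15 and -0.09 in the hippocampus, and those of cortex and hippocampus libraries with the same number at 0.03, -0.03 and 0.15 in Con and at -0.13, -0.02 and 0.13 in IR. These values gave no ground to treat equal numbers as pairs, and they do not show whether the cortex and hippocampus libraries came from the same mice.

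Leaving out each library in turn gave 5 to 10 genes at an unadjusted p in the cortex, 3 to 8 in the hippocampus, 0 to 2 at an adjusted p in the hippocampus, 1 to 4 for the interaction, 0 to 5 for the mean effect, 7 to 13 for the tissue difference in Con, and a median log2 fold change in the hippocampus of 0.015 to 0.094. The lowest median came without Con 2. The causes were not tested. The depth in reads is unknown, and genes near 1 FPKM such as *Icam1*, *Icam2* and *Fli1* are compressed by the pseudocount.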
